A study of Mus musculus with 6 samples.

Results

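Interferon-stimulated genes were followed in 4T1 tumours grown from Bptf KD cells and from Control cells. The members were 54 listed genes, taken where an array probe set was annotated to that gene symbol alone, and sorted by what their products do. The antiviral class held 33 genes, the interferon-inducible GTPases 8, the transcription factors 8, and the receptors with the feedback inhibitor Socs1 5. Probe sets of 1 gene covered 12393 genes, of which 47 were members, and 46 of these members were among the 9248 genes tested. Oas3, an oligoadenylate synthetase, lay in the dimmest 30% of probe sets and was not tested. Its log2 levels were 5.64, 5.53 and 5.41 in the Bptf KD tumours and 5.79, 5.72 and 5.49 in the Control tumours, which overlap. Isg15, Ddx58, Ifi44, Ifi27, Xaf1, Gbp4 and Tgtp1 were not analysed here, since no probe set was annotated to 1 of them alone.

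4T1 is a mouse mammary tumour cell line. In the Bptf KD group, its cells carried short hairpin RNAs against Bptf, brought in with an MMLV retrovirus. The sources used here do not say what the Control cells carried. In both groups, 10000 cells were put into the fourth mammary fat pad of mice that the labels give as Ifrg2r -/- (NSG), and the tumours were taken at day 21, 3 per group with 1 array each. NSG mice have no mature T or B cells and no natural killer cells. The labels call the tumours biological triplicates, but the sources used here do not say if each grew in a mouse of its own. Tumour and host cells are both from mouse, so a level sums the RNA of both. In such bulk tissue, fewer cells of a type and less RNA per cell cannot be told apart. Bptf is the largest subunit of the chromatin remodelling complex NURF.

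Interferons are secreted proteins that cells release on sensing foreign or misplaced nucleic acid. Type I interferons act through the Ifnar1 and Ifnar2 receptor chains and, through Stat proteins joined to Irf9, switch on genes with an interferon-stimulated response element. Interferon gamma, made mainly by T and natural killer cells, acts through Ifngr1 and Ifngr2 and a Stat dimer that binds a gamma-activated site, and the GTPases are among its typical targets. Many genes answer to both kinds, and tumour cells, macrophages and other stromal cells can all respond.

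The promoters of the members are shown first, because these 2 elements tie the classes to the pathway. A RefSeq promoter (GRCm38.p6, 250 bases before to 50 bases after a start) was matched for 37 of the 46 members tested. A GAAA pair, meaning 2 copies of GAAA with 2 bases of any kind between them, resembles the interferon-stimulated response element. Such a pair, or its reverse complement (2 copies of TTTC, spaced alike), was in a promoter of 18 of the 37 members (48.6%). It was in a promoter of 3.99% of the 27025 genes of the promoter table, and of 3.90% of the 7461 genes tested that have a promoter there. The letters TTCNNNGAA, which resemble the gamma-activated site and are their own reverse complement, were in 14 of the 37 members (37.8%), against 9.55% of all genes of the table. By class, the GAAA pair was found in 11 of 20 antiviral members, 4 of 4 GTPases, 2 of 8 transcription factors and 1 of 5 receptors and feedback genes. TTCNNNGAA was found in 8, 1, 3 and 2 members of these classes. Both strands were searched, the windows are those of the table and not of the arrays, and a match describes letters, not a bound site. Of the members described in full below, those with the smallest p-value in different classes and with a promoter were Bst2 (chr8:71537423-71537722, minus strand), Irf9 (chr14:55603735-55604034, plus strand) and Igtp (chr11:58199306-58199605, plus strand). Ifngr1 (chr10:19591699-19591998, plus strand) and Ifih1 (chr2:62646206-62646505, minus strand) had the smallest differences in size among the fully described members with a promoter. These were 0.16 and 0.29, and that of Ifih1 equals the median of the antiviral class. Capitals mark the bases of either motif, in the reading direction of the gene.
Bst2: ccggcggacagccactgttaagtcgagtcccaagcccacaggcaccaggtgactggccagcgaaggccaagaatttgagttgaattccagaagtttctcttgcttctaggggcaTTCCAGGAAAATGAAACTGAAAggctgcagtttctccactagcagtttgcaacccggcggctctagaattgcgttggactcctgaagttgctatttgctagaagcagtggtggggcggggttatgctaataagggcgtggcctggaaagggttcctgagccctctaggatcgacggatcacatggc
Igtp: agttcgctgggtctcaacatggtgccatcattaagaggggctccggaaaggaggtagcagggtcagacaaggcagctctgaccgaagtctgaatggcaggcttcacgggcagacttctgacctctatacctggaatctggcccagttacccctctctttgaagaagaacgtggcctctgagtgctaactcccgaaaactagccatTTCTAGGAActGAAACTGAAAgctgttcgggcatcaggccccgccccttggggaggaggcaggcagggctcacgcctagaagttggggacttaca
Irf9: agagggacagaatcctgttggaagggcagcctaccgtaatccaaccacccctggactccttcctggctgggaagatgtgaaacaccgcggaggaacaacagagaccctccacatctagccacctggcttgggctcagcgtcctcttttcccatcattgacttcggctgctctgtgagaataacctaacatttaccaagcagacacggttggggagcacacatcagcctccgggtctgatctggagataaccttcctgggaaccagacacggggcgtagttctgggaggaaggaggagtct
Ifngr1: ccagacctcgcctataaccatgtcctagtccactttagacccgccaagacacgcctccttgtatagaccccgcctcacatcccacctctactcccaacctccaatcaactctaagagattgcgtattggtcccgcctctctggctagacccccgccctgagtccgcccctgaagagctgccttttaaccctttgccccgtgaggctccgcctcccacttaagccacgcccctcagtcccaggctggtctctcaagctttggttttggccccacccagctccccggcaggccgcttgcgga
Ifih1: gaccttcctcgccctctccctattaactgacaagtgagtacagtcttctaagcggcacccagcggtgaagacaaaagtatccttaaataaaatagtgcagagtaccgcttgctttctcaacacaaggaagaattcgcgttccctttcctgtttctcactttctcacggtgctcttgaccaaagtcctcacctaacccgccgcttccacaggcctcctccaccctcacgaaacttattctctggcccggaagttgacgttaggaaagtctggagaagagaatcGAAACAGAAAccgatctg
In Bst2 the capitals hold 2 overlapping GAAA pairs, which begin 130 and 124 bases before the start, and a copy of TTCNNNGAA that begins 136 bases before it and overlaps the first of them. Igtp has TTCNNNGAA 45 bases and a GAAA pair 34 bases before the start. Ifih1 has a GAAA pair after its start. In this window of Irf9 and Ifngr1 neither run of letters was found.

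The deposited values are log2 expression levels made with RMA, and every level below is on that scale. A difference is the mean of the 3 Bptf KD tumours minus the mean of the 3 Control tumours, and a difference of 1 is 2-fold. Array medians lay between 7.60 and 7.70. Bptf checks the labels. Its brightest probe set read 9.60, 9.56 and 9.99 in Bptf KD tumours 1, 2 and 3, and 10.69, 9.77 and 10.59 in Control tumours 1, 2 and 3. The difference of -0.63 did not pass (SE 0.27, limma adjusted p = 0.371), and on the other 3 probe sets of Bptf the tumour labelled Control 2 lay below every Bptf KD tumour. Bptf in that tumour therefore goes against its label. Across genes it correlated with the other Controls at 0.934 to 0.939, while these 2 correlated with each other at 0.986 and the Bptf KD tumours at 0.984 to 0.988. Every direction below is drawn with this tumour among the Controls, and the difference without it is given beside each member that it moves by over 1.5 times or turns in sign.

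Most members had a higher mean level in Bptf KD tumours than in Controls, but no single member passed the test over all genes. The median difference of the 46 members was 0.34, against 0.06 over all genes tested, and 40 members had a positive difference, against 59.6% of all genes. No member had a limma adjusted p under 0.05, a level that 0.811% of all genes passed (14 genes higher and 61 lower). At an unadjusted limma p under 0.05, 11 members (23.9%) were higher in Bptf KD tumours and 1 was lower, against 7.66% and 5.82% of all genes. All 3 Bptf KD tumours lay above all 3 Controls for 15 members (32.6%), against 11.8% of genes, and below them for 1 member, Oas2, against 8.17% of genes. The mean log2 level of the 46 members was 9.31, 9.29 and 9.27 in Bptf KD tumours 1, 2 and 3, against 9.15, 8.91 and 8.88 in Controls 1, 2 and 3, so the groups did not overlap. The mean of all genes tested stayed between 9.11 and 9.15 on every array. With array weights, which let limma count a deviating array for less, 20 members were called higher and 1 lower at an adjusted p under 0.05, against 10.7% and 7.46% of all genes. Limma warned that these weights had not converged. The weighted difference of Usp18, 1.22, was larger than with any 1 tumour left out (at most 1.10). That of Bst2, 0.99, lay within its range of 0.75 to 1.08 with 1 tumour left out. How far these calls rest on unequal use of the arrays was not tested. Differences of at least 0.5 in size were found for 11 members, and for 10.4% of all genes.

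The tumour labelled Control 2 moved these counts. Without it, the median difference was 0.27 for the members and 0.04 for all genes, and 36 members had a positive difference, against 55.9% of all genes. Limma then called 4 members higher at an adjusted p under 0.05 (Usp18, Bst2, Irf8 and Ifngr2) and none lower, against 1.94% and 2.52% of all genes. At an unadjusted p under 0.05, 15 members were higher and 3 lower (Oas2, Samhd1 and Lgals3bp), against 16.0% and 11.0% of all genes. The Bptf KD tumours lay above both remaining Controls for 21 members and below both for 4, against 27.6% and 18.9% of genes. Oasl1, Parp14, Mx2 and Lgals3bp turned from a positive to a negative difference. Of the 3 Controls, Control 1 had the highest level of 27 members and Control 3 of only 3, whereas Control 3 had the lowest of 24 and the tumour labelled Control 2 the lowest of 18. The Controls also differed more among themselves, with a larger SD than the Bptf KD tumours for 33 of 46 members and for 6921 of 9248 genes.

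**Figure D1:**
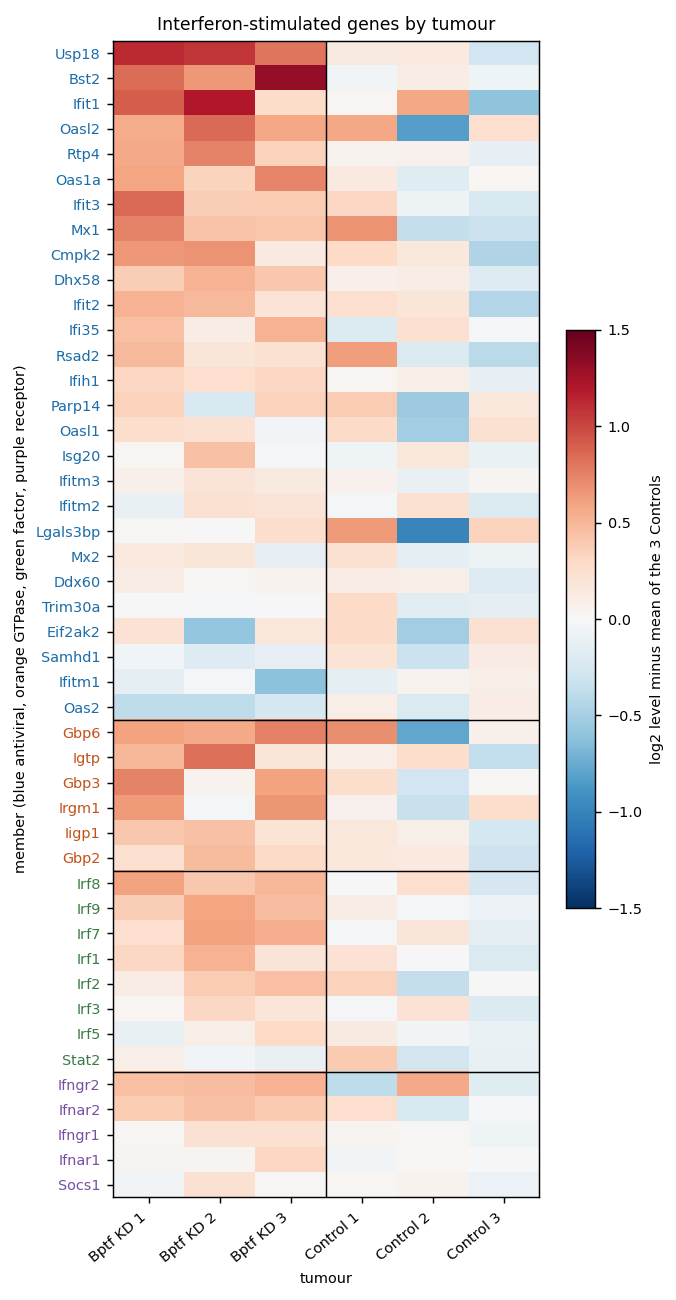
Each row is 1 of the 46 members tested and each column a tumour, Bptf KD left of Control. Colour is the log2 level minus the mean of the 3 Controls, and gene names are coloured by class. Bptf KD columns are mostly above the Control mean, as the 40 positive differences give in numbers, and Control 1 is the highest Control for 27 members.

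Antiviral members had a median difference of 0.29, from -0.34 to 1.00, with 22 positive (81.5%) and 5 negative differences among 27 tested. Over all genes 59.6% were positive. At an unadjusted limma p under 0.05, 7 (25.9%) were higher in Bptf KD tumours and 1 (3.70%) lower, against 7.66% and 5.82% of all genes. The mean level of the class was 9.37, 9.31 and 9.27 in the Bptf KD tumours, against 9.22, 8.91 and 8.93 in the Controls. Control 1 thus came within 0.05 of the lowest Bptf KD tumour. Without the tumour labelled Control 2, the median was 0.23, and 18 of the 27 differences (66.7%) were positive, against 55.9% of all genes.

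Usp18, which takes the ubiquitin-like Isg15 off other proteins and damps signalling at Ifnar2, had the smallest p-value of all members. Its log2 levels were 9.32, 9.28 and 9.01 in Bptf KD tumours, against 8.34, 8.35 and 7.92 in Controls. The groups were apart by more than their spread (9.20 ± 0.17 against 8.20 ± 0.25, SD, n = 3 each), a 2-fold difference of 1.00 (SE 0.17, 95% interval 0.60 to 1.40, limma adjusted p = 0.0590). Without the tumour labelled Control 2 it passed, with a difference of 1.07 (limma adjusted p = 0.0248).

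Bst2, also called tetherin, holds budding virus particles at the cell surface. It read 9.26, 9.07 and 9.73 in Bptf KD tumours and 8.37, 8.53 and 8.35 in Controls. Every Bptf KD tumour was at least 0.5 above every Control, and the Controls lay close together (9.35 ± 0.34 against 8.42 ± 0.10, SD, n = 3 each). The difference was 0.94 (SE 0.19, 95% interval 0.49 to 1.38, limma adjusted p = 0.0931), and it passed without the tumour labelled Control 2 (0.99, limma adjusted p = 0.0438). Its promoter is the one above with 2 GAAA pairs.

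Rtp4, an interferon-induced protein known as a chaperone of cell surface receptors, read 10.96, 11.13 and 10.73 in Bptf KD tumours and 10.44, 10.46 and 10.27 in Controls. The groups did not overlap, and the difference was 0.55 (SE 0.14, limma adjusted p = 0.172). Its dimmer probe set gave 0.61, also without overlap. Oas1a, an oligoadenylate synthetase that makes the activator of RNase L, read 10.80, 10.54 and 10.94 in Bptf KD tumours and 10.36, 10.03 and 10.24 in Controls. It differed by 0.55 as well (SE 0.16, limma adjusted p = 0.204), again with every Bptf KD tumour above every Control.

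Oas2, a second synthetase of the family, was the 1 member with every Bptf KD tumour below every Control. It read 6.64, 6.65 and 6.76 in Bptf KD tumours and 7.13, 6.81 and 7.14 in Controls, a difference of -0.34 (SE 0.14, limma adjusted p = 0.346). Without the tumour labelled Control 2 the difference was -0.45 (limma adjusted p = 0.0655). Of the relatives with ubiquitin-like domains, Oasl2 differed by 0.66 and Oasl1 by 0.15. Both lay lowest by far in the tumour labelled Control 2 (7.12 and 7.24), and without it they differed by 0.25 and -0.11.

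The cytosolic RNA sensors come next. Ifih1, a helicase that detects long double-stranded RNA, read 9.76, 9.70 and 9.76 in Bptf KD tumours and 9.48, 9.54 and 9.33 in Controls. The groups were apart, but by only 0.29 (SE 0.11, limma adjusted p = 0.347). Dhx58, a related helicase that lacks the signalling domain and tunes the response, read 7.97, 8.12 and 8.0 in Bptf KD tumours and 7.68, 7.71 and 7.41 in Controls. It differed by 0.43 without overlap (SE 0.13, limma adjusted p = 0.230). Ddx60, a helicase named as a cofactor of these sensors, differed by 0.06, and by 0.10 without the tumour labelled Control 2.

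The Ifit proteins bind viral RNA and block its translation. Ifit3 read 9.05, 8.57 and 8.59 in Bptf KD tumours and 8.51, 8.13 and 7.97 in Controls. The groups nearly touched, and the difference was 0.53 (SE 0.20, limma adjusted p = 0.329). Ifit1 had a larger difference, 0.79, with much more scatter (9.87, 10.16 and 9.24 in Bptf KD tumours, 8.99, 9.54 and 8.36 in Controls, SE 0.35, limma adjusted p = 0.397). Its level in the tumour labelled Control 2 was above Bptf KD 3, and without that tumour the difference was 1.08. Without Control 3, the lowest Control for all 3 Ifit genes, the differences of Ifit1 and Ifit3 were 0.49 and 0.42. Ifit2 differed by 0.40, with overlap, and by 0.19 without Control 3.

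The remaining antiviral members covered the range from 0.53 to -0.26. Mx1, a dynamin-like GTPase that traps viral capsids, differed by 0.53 and its relative Mx2 by 0.07. These differences were 0.35 and -0.01 without the tumour labelled Control 2, and Mx1 differed by 0.87 without Control 1. Cmpk2, a mitochondrial nucleotide kinase, differed by 0.49, but by 0.26 without Control 3, and Ifi35 differed by 0.36. Rsad2, which makes a chain-terminating nucleotide, differed by 0.30, with 0.61 without Control 1, 0.19 without the tumour labelled Control 2 and 0.10 without Control 3. Isg20, an RNA exonuclease, and Ifitm3 differed by 0.14, Parp14 by 0.15 and Ifitm2 by 0.10. The differences were 0.23 for Isg20, 0.08 for Ifitm3, -0.12 for Parp14 and 0.22 for Ifitm2 without the tumour labelled Control 2. Ifitm1, Ifitm2 and Ifitm3 are membrane proteins that hinder viral entry, and Ifitm3 had levels of 13.09, 13.21 and 13.15 in Bptf KD tumours and 13.08, 12.90 and 13.06 in Controls. Trim30a (-0.01), the RNA-activated kinase Eif2ak2 (-0.06), the nucleotide hydrolase Samhd1 (-0.12) and Ifitm1 (-0.26) had negative differences, all with overlap. They differed by -0.09, -0.32, -0.28 and -0.23, in the same order, without the tumour labelled Control 2. Lgals3bp, a secreted glycoprotein, shows how far 1 tumour can reach. It read 9.19, 9.16 and 9.43 in Bptf KD tumours and 9.81, 8.18 and 9.51 in Controls, so that its difference was 0.09 with the tumour labelled Control 2 and -0.40 without it.

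**Figure D2:**
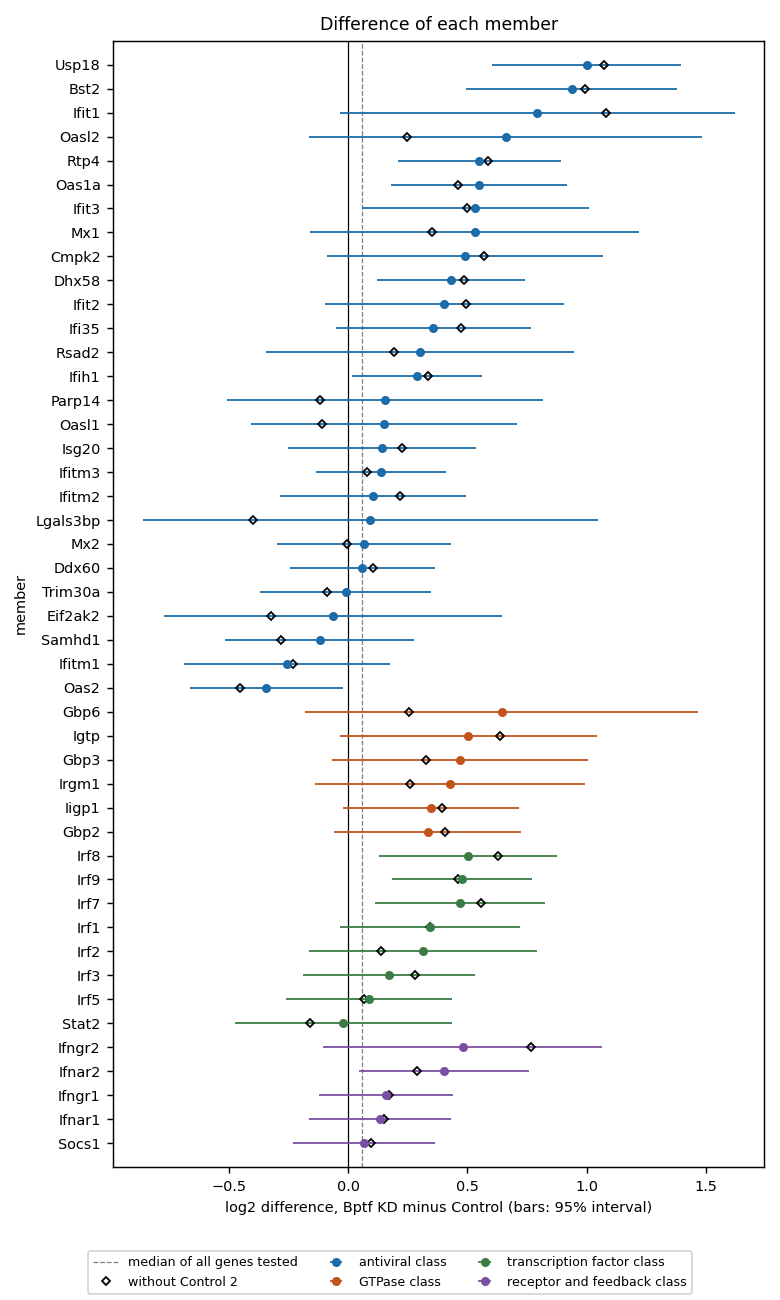
Points are log2 differences, Bptf KD minus Control, for each member with limma's 95% interval, coloured by class, and open diamonds are the differences without the tumour labelled Control 2. The dashed line is the median of all genes tested, 0.06. Usp18 and Bst2 lie farthest to the right, with 1.00 and 0.94, among members whose interval leaves out 0.

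All 6 GTPases tested had a positive difference, against 59.6% of all genes. The class had the highest median, 0.45, within a narrow range of 0.33 to 0.64. None of the 6 passed an unadjusted p of 0.05 in limma with all 6 tumours, where 7.66% of all genes were higher. In 2 of 6 (Iigp1 and Gbp2) every Bptf KD tumour lay above every Control, against 11.8% of all genes. Whether the classes differ from each other was not tested. The mean level of the class was 9.49, 9.36 and 9.41 in Bptf KD tumours, against 9.21, 8.82 and 8.87 in Controls, with no overlap. Without the tumour labelled Control 2 the median was 0.36 and 3 of 6 were higher at an unadjusted limma p under 0.05, against 16.0% of all genes. Each of the 4 GTPases with a RefSeq promoter had a GAAA pair in it.

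Iigp1 belongs to the immunity-related GTPases, which in the mouse load onto and break the vacuoles of intracellular parasites. It read 9.15, 9.19 and 8.95 in Bptf KD tumours and 8.92, 8.84 and 8.49 in Controls, a difference of 0.35 (SE 0.15, limma adjusted p = 0.405). The lowest Bptf KD tumour and the highest Control were almost level. On its dimmer probe set the groups stood further apart, with a difference of 0.60. Without Control 3 the brighter probe set gave 0.22.

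Igtp, a regulatory member of the same family, read 9.67, 9.99 and 9.35 in Bptf KD tumours and 9.27, 9.43 and 8.80 in Controls. Its difference of 0.50 had an SE of 0.23 (limma adjusted p = 0.407), since tumour 3 was the lowest in both groups and Bptf KD 3 lay below the tumour labelled Control 2. Without Control 3 the difference was 0.32. Irgm1, another regulatory member, differed by 0.43 with overlap, and by 0.26 without the tumour labelled Control 2.

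Guanylate-binding proteins coat vacuoles and bacteria and help to trigger inflammasomes. Gbp2 read 10.87, 11.10 and 10.91 in Bptf KD tumours and 10.79, 10.77 and 10.32 in Controls. The gap between the groups was small, with a difference of 0.33 (SE 0.17, limma adjusted p = 0.452), and its other probe set gave 0.50, also without overlap. Without Control 3 the first of these was 0.18. Gbp3 read 10.28, 9.59 and 10.14 in Bptf KD tumours and 9.80, 9.25 and 9.55 in Controls, a difference of 0.47 (SE 0.23, limma adjusted p = 0.438). Bptf KD 2 lay below Control 1 here. Gbp6 had the largest difference of the class, 0.64, but it rested on the tumour labelled Control 2. That tumour read 6.05, beside 7.53 and 6.91 in the other Controls and 7.43, 7.40 and 7.59 in Bptf KD tumours, and without it the difference was 0.25.

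The transcription factors had a median of 0.33 (range -0.02 to 0.50), with 7 of 8 differences positive, against 59.6% of all genes. At an unadjusted limma p under 0.05, 3 members, Irf9, Irf8 and Irf7, were higher (37.5%), against 7.66% of all genes. The same 3 had every Bptf KD tumour above every Control, against 11.8% of all genes. The mean level was 8.99, 9.14 and 9.09 in Bptf KD tumours, against 8.93, 8.77 and 8.64 in Controls.

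Irf9 is the DNA-binding partner of the Stat proteins in the type I response. It read 9.0, 9.23 and 9.10 in Bptf KD tumours and 8.75, 8.60 and 8.55 in Controls. Both groups were tight, and the difference was 0.48 (SE 0.12, 95% interval 0.18 to 0.77, limma adjusted p = 0.171). Stat2, one of these partners, read 7.43, 7.30 and 7.22 in Bptf KD tumours and 7.73, 7.06 and 7.22 in Controls, a difference of -0.02, and of -0.16 without the tumour labelled Control 2.

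Irf8, which shapes the macrophage and dendritic cell lineages, read 10.33, 10.13 and 10.22 in Bptf KD tumours and 9.73, 9.97 and 9.47 in Controls. Its difference was 0.50 (SE 0.16, limma adjusted p = 0.243), and 0.47 on its other probe set. The tumour labelled Control 2 lay nearest to the Bptf KD tumours on both probe sets, and without it Irf8 passed (0.63, limma adjusted p = 0.0486). Irf7, the factor that amplifies type I interferon production, read 8.39, 8.74 and 8.68 in Bptf KD tumours and 8.10, 8.31 and 7.99 in Controls, a difference of 0.47 (SE 0.15, limma adjusted p = 0.252).

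Irf1, an early target of interferon gamma, read 11.11, 11.33 and 11.00 in Bptf KD tumours and 11.02, 10.80 and 10.59 in Controls. Control 1 was above Bptf KD 3, so the groups overlapped, and the difference was 0.34 (SE 0.16, limma adjusted p = 0.418). Irf2, which can oppose Irf1 at the same sites, differed by 0.31. It was lowest of all in the tumour labelled Control 2 (7.65), without which it differed by 0.14. Irf3, which is activated by phosphorylation, differed by 0.17, and by 0.28 without that tumour. Irf5 differed by 0.09.

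**Figure D3:**
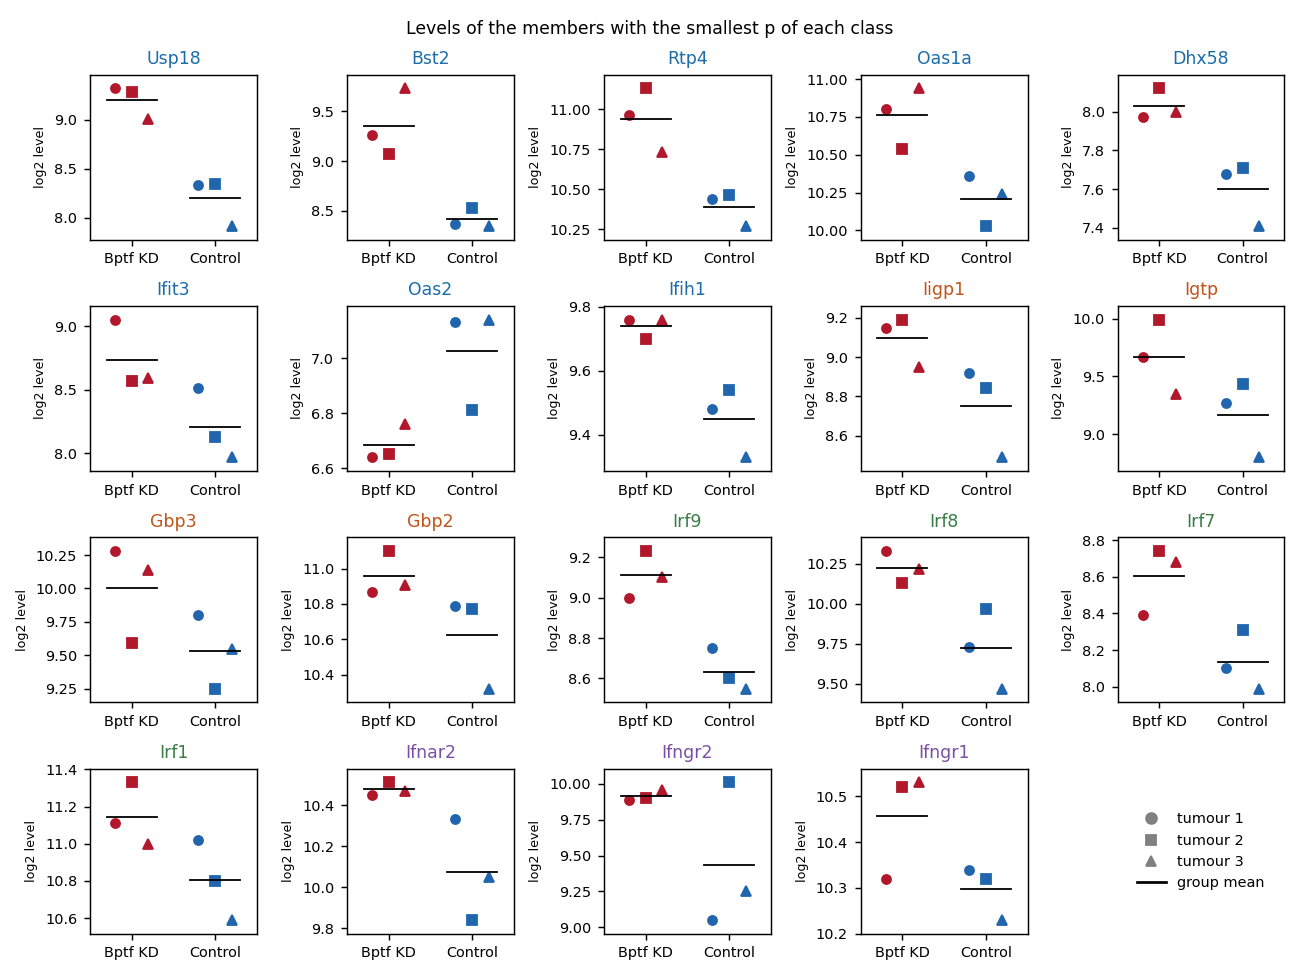
Each panel shows the log2 levels of 1 member in the 3 Bptf KD tumours (left) and the 3 Controls (right), with tumour number by symbol, the group mean as a line and an axis range of its own. Shown are the 19 members with the smallest p of each class. Usp18, Bst2 and Irf9 have groups that stand well apart, Oas2 is the 1 with Bptf KD below, and Ifngr2 has the tumour labelled Control 2 at 10.01, above all others.

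The receptor chains had mostly small differences, with a class median of 0.16 and 5 of 5 positive differences, against 59.6% of all genes. Ifnar2, the chain of the type I receptor that binds ligand tightly, read 10.45, 10.51 and 10.47 in Bptf KD tumours and 10.33, 9.84 and 10.05 in Controls. The Bptf KD tumours were almost equal and lay above all Controls, with a difference of 0.40 (SE 0.15, limma adjusted p = 0.327). Its dimmer probe set gave 0.22 with overlap. Ifnar1, the other chain, differed by 0.13.

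Ifngr2, the signalling chain of the interferon gamma receptor, was split among the Controls. It read 9.89, 9.90 and 9.96 in Bptf KD tumours and 9.05, 10.01 and 9.25 in Controls, a difference of 0.48 (SE 0.25, limma adjusted p = 0.472). Without the tumour labelled Control 2 it was 0.77 and passed (limma adjusted p = 0.0231), and without Control 1 it was 0.29, but its dimmer probe set gave -0.02 over all tumours. Ifngr1, the ligand-binding chain, read 10.32, 10.52 and 10.53 in Bptf KD tumours and 10.34, 10.32 and 10.23 in Controls, a difference of 0.16 (SE 0.12, limma adjusted p = 0.642). Socs1, which shuts off the Jak kinases, differed by 0.07.

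**Figure D4:**
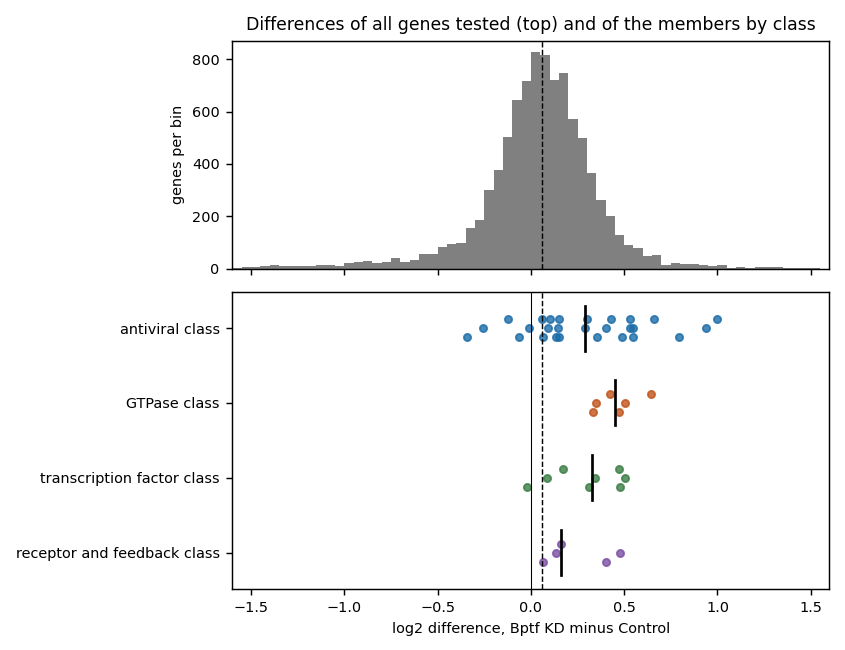
The upper panel is a histogram of the log2 differences, Bptf KD minus Control, of the 9248 genes tested, of which 82 lie outside the axis of -1.6 to 1.6, and the lower panel has 1 point per member by class on the same axis, with the class median marked. The dashed line is the median of all genes, 0.06. The 6 GTPases lie between 0.33 and 0.64, while antiviral members spread from -0.34 to 1.00.

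Several probe sets above the dim level were available for 12 of the members tested, and for 5 of these (Eif2ak2, Ifngr2, Irf3, Irf5 and Trim30a) they gave differences of both signs. None of the 5 had an unadjusted p under 0.05 in the fit with all 6 tumours.

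Other genes of the pathway were read beside the members. The interferons themselves were dim: 7 ligand genes of 9 listed (Ifng, Ifnb1 and 5 Ifna genes) had a probe set, and none lay above the dim level. RMA values carry no detection call, so this does not give their absence. Of the kinases that sit on the receptors, 3 were tested and had a median of 0.01, or -0.07 without the tumour labelled Control 2. Jak2, which serves the interferon gamma receptor, read 11.54, 10.99 and 11.25 in Bptf KD tumours and 10.77, 10.16 and 10.54 in Controls, a difference of 0.77 without overlap (SE 0.21, limma adjusted p = 0.189).

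Of 10 genes of nucleic acid sensing, 7 (70.0%) had positive differences, against 59.6% of all genes, with a median of 0.12. The direction of the list turned without the tumour labelled Control 2, with a median of -0.03 and 5 of 10 positive, against 55.9% of all genes. Tlr3, the endosomal receptor for double-stranded RNA, was the 1 with an unadjusted p under 0.05. It read 9.27, 9.20 and 9.18 in Bptf KD tumours and 8.95, 8.59 and 8.84 in Controls, a difference of 0.42 (SE 0.13, limma adjusted p = 0.246).

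Of 22 further interferon-inducible genes tested, 17 (77.3%) had positive and 4 negative differences, against 59.6% positive over all genes. The median was 0.16, and none passed the adjusted threshold. With the tumour labelled Control 2 left out, 14 (63.6%) were positive, near the 55.9% of all genes, and the median was 0.13. At an unadjusted limma p under 0.05, 3 (13.6%) were higher and 1 (4.55%) lower, against 7.66% and 5.82% of all genes. The GTPases Irgm2 and Ifi47, of the same family as Iigp1, both differed by 0.64 without overlap (limma adjusted p = 0.173 and 0.223). Cxcl10, a chemokine that draws activated T cells, read 8.40, 8.62 and 8.46 in Bptf KD tumours and 8.34, 7.85 and 7.48 in Controls, a difference of 0.60 (limma adjusted p = 0.323). Plac8, a lysosomal protein of immune and epithelial cells, differed the other way, with 9.72, 10.17 and 9.20 in Bptf KD tumours and 10.31, 11.72 and 11.25 in Controls (-1.40, limma adjusted p = 0.204). Ido1, also on this list, was dim and not tested. It read 4.49, 4.47 and 4.41 in Bptf KD tumours and 4.62, 5.69 and 5.02 in Controls, a difference of -0.65 without overlap.

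Markers of other cell types also stood apart between the groups. At a limma adjusted p under 0.05, 6 of 7 adipocyte, 3 of 8 fibroblast and 1 of 7 endothelial genes (Tek, with a difference of -1.30) fell in Bptf KD tumours, against 0.660% of all genes. These counts were 6, 4 and 1 without the tumour labelled Control 2, against 2.52% of all genes. The levels of each marker list were summed per tumour. All 8 epithelial markers had a probe set, and their sum was 89.47 to 90.07 in Bptf KD tumours against 80.89 to 87.86 in Controls. Of these 8, only Epcam, Cldn3 and Cldn4 (37.5%) had every Bptf KD tumour above every Control, against 11.8% of all genes. Cldn7, Cdh1, Krt18, Krt8 and Krt19 overlapped, with differences of 1.12, 0.23, 0.19, 0.02 and -0.33. None of the 8 had a limma adjusted p under 0.05, where 0.151% of all genes were higher. The adipocyte sum (7 of 8 genes) was 51.51 to 59.11 in Bptf KD tumours against 75.75 to 82.11 in Controls, and the fibroblast sum (8 of 8) was 87.29 to 88.66 against 95.31 to 96.93. None of these sums overlapped between the groups. The endothelial sum (7 of 7) was 51.99 to 52.59 in Bptf KD tumours and 52.68 to 54.89 in Controls, narrowly without overlap. Of its 7 genes, 4 (57.1%) had positive differences, against 59.6% of all genes, while Tek, Cd34 and Kdr differed by -1.30, -0.84 and -0.24. The muscle sum (9 of 9) overlapped, with 55.89 to 85.38 in Bptf KD tumours and 58.70 to 107.23 in Controls. The highest muscle sum, 107.23, was that of the tumour labelled Control 2. Their part in the results above was not tested.

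Markers of the cells that make or answer interferon were mixed. The macrophage sum (11 of 12 genes) overlapped, with 129.44 to 132.75 in Bptf KD tumours and 130.60 to 132.97 in Controls, but its genes went both ways. Of the 11, 8 (72.7%) had positive differences, against 59.6% of all genes, with a median of 0.26 (0.18 without the tumour labelled Control 2). C1qa, C1qb, C1qc, Aif1 and Lyz2 had every Bptf KD tumour above every Control, while Cd163 (-2.13) and Mrc1 (-0.75) had every Bptf KD tumour below. These are 45.5% and 18.2% of the list, against 11.8% and 8.17% of all genes. The neutrophil sum (7 of 9 genes, 3 of them dim) was 50.83 to 52.63 in Bptf KD tumours and 48.29 to 52.56 in Controls, where only the tumour labelled Control 2 reached the Bptf KD levels. The list of plasmacytoid dendritic cells, which are strong producers of type I interferon, had 4 of 6 genes with a probe set, of which Bst2 and Irf7 are members here. Tcf4 differed by 0.60, and by 0.16 without the tumour labelled Control 2. Ccr9 was dim and differed by -0.86, with every Bptf KD tumour below every Control. The sum of the 4 was 34.27 to 35.27 in Bptf KD tumours and 33.43 to 33.86 in Controls. Since it holds the members Bst2 and Irf7, it is not a separate reading of these cells, and Tcf4 and Ccr9 went opposite ways. All 4 B cell genes with a probe set were dim, as were 4 of 5 natural killer cell genes and 4 of 7 T cell genes, among them Cd3d and Cd3g. The other T cell genes, Cd3e, Cd8a and Cd4, lay above the dim level and differed by -0.25, -0.10 and -0.17. Their unadjusted limma p-values were 0.0992, 0.365 and 0.198. Cd3e (6.41 to 6.92) and Cd8a (6.17 to 6.36) were near the dim level of 6.09. Cd3e and Cd8a had every Bptf KD tumour below every Control, against 8.17% of all genes. So did the dim natural killer cell gene Klrd1 (-0.96), which read 6.38 in the tumour labelled Control 2. Whether these shares of cells bear on the members was not tested either.

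**Figure D5:**
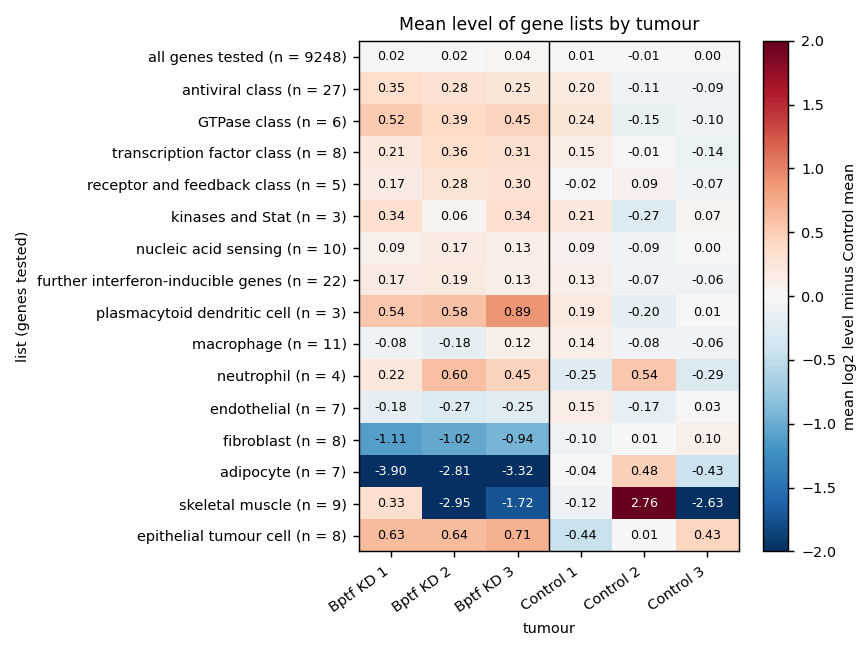
Each row is a gene list and each column a tumour, Bptf KD left of Control. Colour and number are the mean log2 level of the list minus the mean of the 3 Controls. The 4 member classes run from 0.17 to 0.52 in Bptf KD tumours, and the adipocyte list from -3.90 to -2.81. Colour stops at 2 in size.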

How the data were processed

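Expression arrays of 6 tumours were analysed, 3 Bptf KD and 3 Control. The deposited values are log2 levels made with RMA, per the submitters' processing notes, with no version stated. The log base, not stated either, was taken as 2, since values run from 2.98 to 15.17. Of 22690 probe sets, GEO's platform annotation gave 1 gene for 20380, several for 691 and none for 1555, and 64 are controls. Symbols were matched by Entrez identifier to RefSeq, where 29 were not found. The brightest probe set stood for a gene, and those with a mean in the lowest 30% (log2 6.09) were left out. The groups were compared by lmFit and eBayes of limma 3.58.1 (R 4.3.3, no covariate), with Benjamini-Hochberg adjustment over 9248 genes at 0.05, and all p-values come from it. An exact permutation test cannot go below p = 0.1 with 3 tumours per group. The number of arrays limits the precision, and p-values measure the spread between these tumours. The procedure was tested on simulated data.

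Members and lists were chosen with earlier results of these data known. Every tumour's value is given for the 8 antiviral members, 4 GTPases, 4 transcription factors and 3 receptor or feedback members with the smallest p, and further pathway genes are named past an unadjusted p of 0.05. Members outside this rule were picked after their values were seen. Alternatives changed the filter, probe set, normalisation, variance model, replicate block and tumours.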

Additional observations from a re-analysis of the deposited data

How the results depend on the processing

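With all 6 tumours 0 members were called, 11 were higher and 1 lower at an unadjusted p, and the 19 named members kept their direction in every alternative run. With array weights 21 members were called (20 higher, 1 lower), with 26 and 2 at an unadjusted p, but 10.7% and 7.46% of all genes were called too and limma warned that the weights had not converged. Leaving out each tumour in turn gave 0 to 4 called members, 5 to 19 higher and 0 to 3 lower. The 4 were called without the tumour labelled Control 2, 19 were higher without Control 1, and 5 and 7 without Control 3 and Bptf KD 1. The median of the transcription factors ran from 0.27 to 0.45, with the highest value without Control 1. The lower count was also 0 with the lowest 50% of probe sets left out and with the probe set of largest SD. An alternative chosen after seeing the data left out the tumour labelled Control 2 and gave 4 members below the Controls, against 1. Over all genes the share rose as well, from 8.17% to 18.9%, with fewer Controls left to lie below. Any further cause was not tested. With the replicate number as a block, 1 member (Usp18, limma adjusted p = 0.0320) was called and 18 were higher. Tumours numbered 1, 2 and 3 correlated with their namesakes at 0.0054, 0.28 and 0.37 in their deviations from the group means. Equal numbers were to be taken as pairs only if all were over 0.1, so the main fit has no pairs. Numbers 2 and 3 were over that level, and this rule does not decide if same-numbered tumours share an origin. Over all alternatives, limma's adjusted p ran from 0.00219 to 0.238 for Usp18, 0.00648 to 0.293 for Bst2, 0.00666 to 0.590 for Irf8 and 0.0102 to 0.812 for Ifngr2. No alternative moved the median of all genes by more than 0.04.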

Other observations

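The members whose promoter holds a GAAA pair (2 copies of GAAA, 2 bases apart) did not have larger differences than those without it: the median was 0.31 over 18 members with it, 15 of them positive, and 0.34 over 19 members without it, 17 of them positive. For TTCNNNGAA the medians were 0.35 over 14 members with it and 0.29 over 23 without it, and 6 members with both (Bst2, Eif2ak2, Ifitm3, Igtp, Irf2 and Oas1a) had a median of 0.41. No test was run on these groups.

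Bptf KD 2 and the tumour labelled Control 2, compared after the values were seen, were the 2 lowest of the 6 tumours for 15.3% of all genes and the 2 highest for 16.3%. Among the members the counts were 5 (Eif2ak2, Irgm1, Lgals3bp, Parp14 and Samhd1, 10.9%) and 4 (8.70%), so this is not particular to the members. Eif2ak2 read 9.45, 8.65 and 9.40 in Bptf KD tumours and 9.52, 8.71 and 9.46 in Controls. The level of the 3-prime minus that of the 5-prime control probe set was 0.92, 1.05 and 0.76 for Actb in Bptf KD tumours and 0.76, 1.23 and 0.77 in Controls. For Gapdh it was -0.04, -0.04 and 0.04 in Bptf KD tumours and -0.06, 0.06 and -0.08 in Controls, where Bptf KD 2 did not stand out. The tumour labelled Control 2 had the highest value for both Actb and Gapdh, and Bptf KD 2 the next highest for Actb. Whether RNA quality bears on the levels was not tested.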
